A study of Homo sapiens with 4 samples.

Results

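The genes described here are long noncoding RNAs of 4 kinds: hosts of small nucleolar RNAs (snoRNAs), the nuclear RNAs MALAT1 and MEG3, hosts of microRNAs, and genes with a LINC symbol. They were chosen by symbol alone, as probe sets with a single gene symbol in the platform annotation that was SNHG, MIR-HG or LINC with a number, or GAS5, DANCR, EPB41L4A-AS1, MALAT1, NEAT1 or MEG3. The rule found 876 genes measured by 1153 of the 54613 probe sets that were not controls. In all, 19775 genes had a probe set with no other symbol. A further 111 probe sets carry a symbol of the rule beside others and were left out. By class these were 18 probe sets of 14 snoRNA hosts, 22 of MALAT1 and MEG3, 30 of 21 microRNA hosts and 1083 of 839 LINC genes. NEAT1 had no probe set with a single symbol and is not analysed here. RefSeq placed the genes of 1144 member probe sets in its lncRNA class, and the other 9 had no entry.

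FMRP, the RNA-binding protein lost in fragile X syndrome, was pulled down from HEK293 cells, and the RNA that came with it was compared with the RNA of the starting lysate. The IP group held 2 samples of RNA recovered with an anti-FLAG M2 antibody from cells carrying a FlagHA-tagged FMRP transgene, washed at 300 mM KCl. The Lysate group held 2 samples of total RNA taken before the IP. All samples came from stable Flp-In T-REx HEK293 cells, of human embryonic kidney origin, induced for 16 h with 1 µg/ml doxycycline, and 2 µg of RNA was labelled for each Affymetrix U133 Plus 2.0 array. No mock IP or untagged line is among the samples used here, so RNA that sticks to beads cannot be told apart from RNA bound through FMRP. The labels do not say that replicates are separate cultures, and p-values then measure only the spread between these samples, which may be technical.

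Most snoRNAs in human cells are cut from the introns of longer host transcripts, and in several hosts the spliced exons encode no protein. Many host transcripts start with a C and a run of pyrimidines, the 5′ terminal oligopyrimidine (TOP) sequence also found on ribosomal protein mRNAs. MALAT1 is retained in nuclear speckles, NEAT1 scaffolds paraspeckles, and MEG3 is an imprinted lncRNA, while FMRP is mostly cytoplasmic and bound to polyribosomes. LINC symbols only say that a gene is long, noncoding and intergenic, and the genes share no function by name.

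The start of transcription is shown for 6 tested snoRNA hosts, because TOP transcripts are defined by their first bases. Each window holds 10 bases before and 20 bases from the annotated RefSeq start (GRCh38.p14), 5′ to 3′ on the gene's strand, so that the start is base 11. Capitals mark a match to CTTTT or CCCTT, 2 short pyrimidine runs chosen after the windows had been seen. Either motif occurred in 6.64% of all 35116 such windows on the transcribed strand and in 5.04% on the other strand.
SNHG19: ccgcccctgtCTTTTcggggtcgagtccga
SNHG32: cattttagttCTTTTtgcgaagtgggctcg
SNHG33: gaggCTTTTacaccgaacggaggtgatgtg
DANCR: tgcgcgccccgCCCTTgcccagagtcttcc
EPB41L4A-AS1: tcatgaattctgtcgggtcccaaaatacgt
SNHG17: gtgtggcctcagtccttcgccgtccctcgc
The windows lie at chr16:2155339-2155368 (minus strand) for SNHG19, chr6:31834906-31834935 (plus) for SNHG32 and chr3:183447598-183447627 (plus) for SNHG33. Those of DANCR, EPB41L4A-AS1 and SNHG17 lie at chr4:52712384-52712413 (plus), chr5:112160516-112160545 (plus) and chr20:38435309-38435338 (minus). A match was found in 4 of the 7 tested host genes, and in none on the other strand. The motifs were picked from these windows, so that count cannot be tested against the share over all windows. Only the matches of SNHG19 and SNHG32 begin at the start itself. That of DANCR begins just after it, and that of SNHG33 lies wholly before it, outside the transcript annotated from that start. A second annotated start of SNHG33 and the window of GAS5 held neither motif. A match describes these letters only and does not show a TOP transcript.

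Values are log2 probe set signals as deposited. The medians of the 4 arrays lay between 4.67 and 4.71, which means that changes are relative to the rest of the array. The table has no detection calls, so low signals have no known floor. Testing with limma was limited to probe sets whose mean signal on the 4 arrays reached 4.69, the overall median, and a call means an adjusted p of at most 0.05. Just inside that filter lay MIR3936HG, LINC01561 and LINC02387, each at 4.70, and just outside lay LINC00475 at 4.68, MIR570HG at 4.67 and LINC01356 at 4.67. An ID suffix of _s_at, _x_at or _a_at was taken here, without telling them apart, as a mark of possible cross-hybridization. The filter kept 188 of the 1153 member probe sets, from 147 genes, and 50 of the 188 carry such a suffix. It kept 50.0% of snoRNA host probe sets, 36.4% of those of MALAT1 and MEG3, 20% of microRNA host and 15.2% of LINC probe sets, against 61.3% for protein-coding genes.

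As a check of the labels, the FMRP gene FMR1 had 9.28 and 9.03 on the IP arrays, against 9.64 and 9.51 on the Lysate arrays (limma adjusted p = 0.0363). The array reads RNA, and whether the FMR1 probe set reads the transgene's transcript beside the cell's own could not be checked. FXR2, a paralog of FMR1, was 10.83 and 10.86 in IP and 8.76 and 8.95 in Lysate (log2 difference 1.99, limma adjusted p = 0.000112). FXR1, the other paralog, differed by -0.05 (limma adjusted p = 0.746). Each of these genes is given by 1 probe set, out of 2 for FMR1, 2 for FXR2 and 6 for FXR1, as are the markers below. Correlation across tested probe sets was 0.990 between the IP arrays, 0.992 between the Lysate arrays and 0.875 to 0.904 between an IP and a Lysate array. Of 9 markers used for HEK293, 8 were above the testing floor, with NEFM below it. INA was called lower in IP (-0.54 on the log2 scale), KRT8 and KRT18 were called higher (0.38 and 0.44), and the other 5 were not called. Of 7 markers of other cell types, 4 were above it, namely COL1A1, HBB, GFAP and PECAM1. Their whole list ranged from 2.85 to 7.47 in IP means and from 2.62 to 7.15 in Lysate means, and PTPRC and ALB had IP means of 2.996 and 2.85. GFAP and PECAM1 were called higher in IP, by 0.56 and 0.53 on the log2 scale. The part of these markers in the results was not tested.

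Noncoding snoRNA hosts were lower in the FMRP IP than in the lysate. Of 9 tested probe sets, 8 were called lower, none higher and 1 was not called, and 6 were lower by at least 2-fold. Over all 27307 probe sets tested, 59.4% were called in either direction, 27.9% lower and 31.5% higher, and 12.7% were called and at least 2-fold lower. The median log2 change of the snoRNA host probe sets was -1.54, with quartiles of -1.97 and -0.46, against 0.05 for all tested probe sets. In all 8 the IP arrays both lay below the Lysate arrays, which held for 37.4% of all tested probe sets. The reverse, both IP arrays above both Lysate arrays, was seen on 1, that of GAS5, and on 42.7% of all tested probe sets. None of the 8 had an IP mean below the testing floor.

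**Figure D1:**
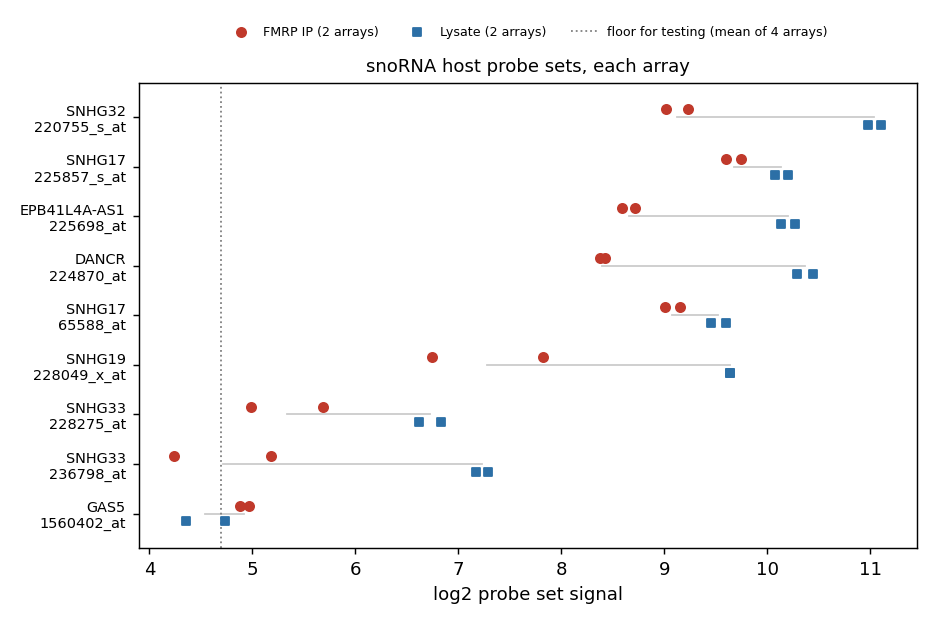
Log2 signal (x axis) of the 9 tested snoRNA host probe sets, with the 2 IP arrays as red circles and the 2 Lysate arrays as blue squares; grey lines join the group means and the dotted line is the testing floor. The IP circles lie left of the Lysate squares for every probe set but that of GAS5.

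DANCR, a lncRNA with SNORA26 inside its gene, had 8.43 and 8.37 in IP, against 10.28 and 10.44 in Lysate. It was 3.91-fold lower in IP (log2 change -1.97, SE 0.13, limma adjusted p = 0.000112). SNHG32, which holds SNORD48 and SNORD52, had 9.23 and 9.02 in IP and 11.10 and 10.98 in Lysate, a 3.77-fold lower IP signal (limma adjusted p = 0.000114). Both genes had close pairs of arrays and groups that stood far apart. Both start windows hold a motif, and the SNHG32 probe set may cross-hybridize.

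EPB41L4A-AS1, the host of SNORA13, had 8.72 and 8.59 in IP, against 10.27 and 10.13 in Lysate. Its log2 change was -1.54 (SE 0.13, limma adjusted p = 0.000136), or 2.92-fold lower in IP, and its window holds neither motif. A second probe set of the gene lay below the testing floor, at 2.71 and 2.46 in IP and 3.80 and 4.22 in Lysate, with the IP arrays again the lower.

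SNHG19, the host of SNORD60, had 7.82 and 6.75 in IP, against 9.63 and 9.64 in Lysate. The Lysate arrays were nearly equal, whereas the IP arrays differed by more than 1 log2 unit, and still both lay below the lysate. The log2 change was -2.35 (SE 0.31, limma adjusted p = 0.000701), from a probe set that may cross-hybridize.

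SNHG33, with SNORA63D and SNORA63E inside its gene, was measured by 2 tested probe sets, which share a target. One had 5.18 and 4.24 in IP and 7.17 and 7.29 in Lysate (log2 change -2.52, SE 0.28, limma adjusted p = 0.000354). The other had 5.68 and 4.99 in IP and 6.83 and 6.62 in Lysate (log2 change -1.39, SE 0.23, limma adjusted p = 0.00179). Both fell, with the second IP array the lower each time, and the first probe set's IP mean of 4.71 is close to the array median, so its size is uncertain.

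SNHG17, which carries a cluster of SNORA71 genes, had the smallest called changes among the tested snoRNA hosts. Its probe sets had 9.004 and 9.15 in IP against 9.45 and 9.60 in Lysate, and 9.60 and 9.75 in IP against 10.07 and 10.20 in Lysate. Their log2 changes were -0.45 and -0.46 (limma adjusted p = 0.0210 and 0.0177), and the groups did not overlap on either. Both calls were lost without the filter on low signal, without Lysate replicate 2 and without IP replicate 1, where adjusted p lay between 0.0707 and 0.109.

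GAS5, whose gene holds 10 SNORD genes and 1 SNORA gene, had 4.88 and 4.96 in IP, against 4.35 and 4.73 in Lysate. The IP arrays were the higher, but the difference of 0.38 was not called (95% interval 0.0049 to 0.75, limma adjusted p = 0.0756), and 1 of the 2 Lysate values lay below the floor. The Lysate mean of 4.54 was below the floor, so the probe set passed the filter through the IP arrays alone. A higher IP mean was therefore required by the filter, and the direction is not interpreted. Without Lysate replicate 2, which leaves 1 Lysate array, the change was 0.57, and the call there is not interpreted.

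The other 9 snoRNA host probe sets were below the floor, with mean signals from 2.37 to 4.40. They belong to SNHG4, SNHG10, SNHG18, SNHG22, SNHG24, SNHG27 (2 probe sets), SNHG28 and the second one of EPB41L4A-AS1. Of the 9, 4 had both IP arrays below both Lysate arrays, 2 had both above and 3 overlapped. SNHG4, which holds SNORA74 genes, had 2.70 and 2.22 in IP against 4.10 and 4.25 in Lysate. On the other side, SNHG18, which holds SNORD123, had 4.18 and 4.34 in IP against 3.80 and 3.95 in Lysate, and SNHG10 had 3.67 and 3.47 in IP against 3.37 and 3.44 in Lysate. In the fit without a filter, 8 of all 18 host probe sets were called lower and none higher, where 14.1% of all 54613 probe sets were called lower. Those 8 lacked SNHG17 and gained SNHG4 and the second probe set of EPB41L4A-AS1.

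MALAT1 was lower in the IP on each of the 4 tested probe sets whose IP mean reached the floor, and MEG3 showed no called change on the deposited scale. The log2 changes of these 4 ran from -3.37 to -1.49, and all were called. Of 12 MALAT1 probe sets 7 were tested, and the other 3 were also called lower but passed the filter through the Lysate arrays alone, so a lower IP mean there was required by the filter. Over all 27307 tested probe sets, 27.9% were called lower. The MALAT1 probe sets read 1 RNA and are not independent. Of the 7, 6 may cross-hybridize.

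The MALAT1 probe set with the highest mean had 7.31 and 6.81 in IP, against 9.002 and 8.97 in Lysate. That is a 3.80-fold lower IP signal (log2 change -1.93, SE 0.18, limma adjusted p = 0.000185). The probe set with the largest fall had 6.56 and 4.79 in IP and 9.06 and 9.02 in Lysate (log2 change -3.37, SE 0.49, limma adjusted p = 0.00108). Its IP arrays differed by 1.77 on the log2 scale, against 0.04 for its Lysate arrays.

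The 1 tested MALAT1 probe set without a cross-hybridization suffix had 4.70 and 2.84 in IP, against 5.95 and 5.99 in Lysate. It was called lower (limma adjusted p = 0.00913), and its 2 IP arrays differed most of the 7. It is 1 of the 3 with an IP mean below the testing floor, so the size of its fall is not interpreted. Over the 8 tested probe sets of MALAT1 and MEG3 the median gap between replicates was 0.57 in IP and 0.07 in Lysate. The second IP array was the lower one on 6 of the 7 MALAT1 probe sets.

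**Figure D2:**
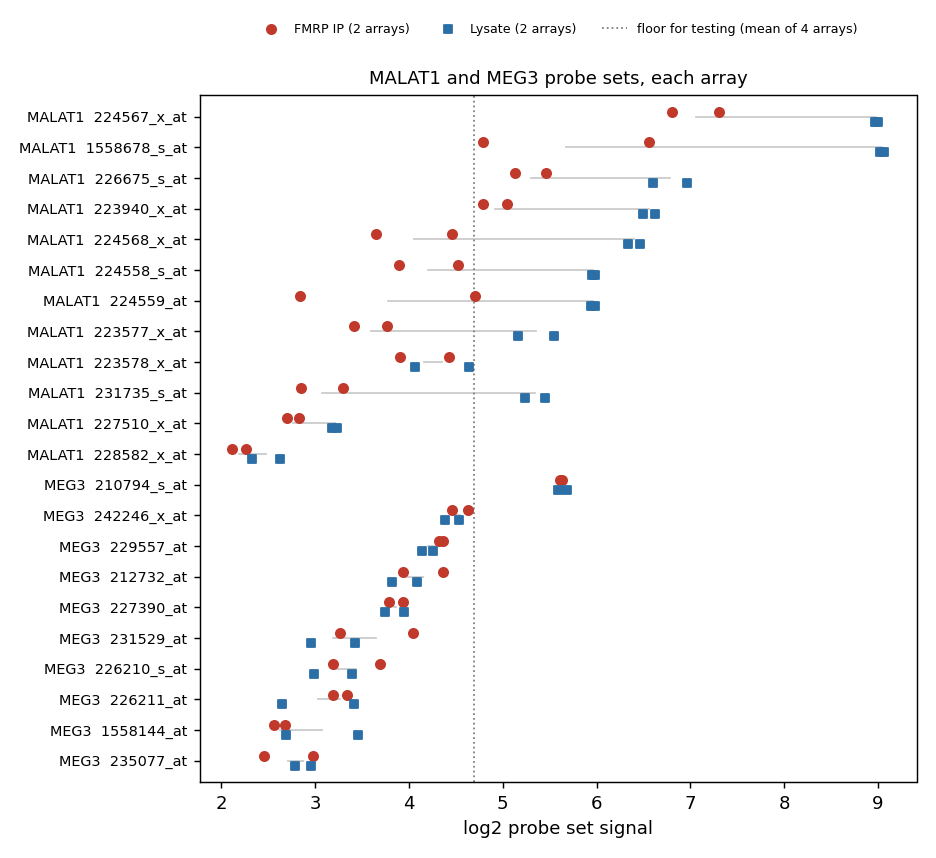
Log2 signal (x axis) of all 22 MALAT1 and MEG3 probe sets, with IP arrays as red circles, Lysate arrays as blue squares, grey lines joining the group means and the testing floor dotted. The 7 tested MALAT1 probe sets, 3 of them with IP means under the floor, have IP arrays left of the Lysate arrays, while the groups overlap on the tested MEG3 probe set.

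Among the 5 MALAT1 probe sets below the floor, 1 had 2.85 and 3.29 in IP against 5.45 and 5.24 in Lysate, and another had 3.42 and 3.77 in IP against 5.54 and 5.16 in Lysate. Both were called lower in the fit without a filter (limma adjusted p = 0.00218 and 0.00315), which made 9 of the 22 probe sets of both genes. In that fit 14.1% of all 54613 probe sets were called lower. The remaining 3 MALAT1 probe sets below the floor were called in neither fit, and on 1 of them the groups overlapped.

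MEG3 was tested by 1 of its 10 probe sets. It had 5.61 and 5.63 in IP, against 5.68 and 5.59 in Lysate, and the groups overlapped. The log2 difference was -0.02, with a 95% interval from -0.30 to 0.27 (limma adjusted p = 0.911). Centred on the array's hybridization controls, which lowers every change by the same amount, it was -0.50 and was called lower (limma adjusted p = 0.0270). The other 9 probe sets lay below the floor.

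No tested probe set of a microRNA host was called with the filter and scale used here. Only 6 of their 30 probe sets, from 4 genes, were tested with limma. None was called at an adjusted p of at most 0.05, where 59.4% of all tested probe sets were, and 41.0% of those below a mean of 6. Of the 6, 1 had an unadjusted p under 0.05, the MIR1915HG probe set described next. Their median log2 change was 0.02. With hybridization control centring 2 of the 6 were called lower, where 48.3% of all tested probe sets were. At a mean of at least 6 that of MIR1915HG was called lower (limma adjusted p = 0.0433), and with no filter 1 of all 30, of MIR924HG, was (log2 change -0.92, limma adjusted p = 0.00747). Over all probe sets in those fits, 6172 of 18379 and 14.1% of 54613 were called lower. The microRNAs inside 3 of these hosts are listed to show which products the host transcripts would carry, with the seed (bases 2 to 8) in capitals. They are RefSeq mature sequences on GRCh38.p14, all on the minus strand, and MIR3667, inside MIR3667HG, is named only.
hsa-miR-1915-3p: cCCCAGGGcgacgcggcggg
hsa-miR-1915-5p: aCCUUGCCuugcugcccgggcc
hsa-miR-3936: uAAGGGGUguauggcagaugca
hsa-miR-3945: aGGGCAUAggagaggguugauau
They lie at chr10:21496576-21496595, chr10:21496609-21496630, chr5:132365513-132365534 and chr4:184851066-184851088 in that order, and the 4 seeds all differ. The array read the long host transcripts and not these microRNAs.

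MIR1915HG had 3 tested probe sets. One had 6.93 and 6.90 in IP, against 7.198 and 7.188 in Lysate, a log2 difference of -0.28 that was not called (95% interval -0.56 to -0.0025, limma adjusted p = 0.0764), though the groups did not overlap. On its other probe sets the groups overlapped, with differences of 0.07 and 0.05. MIR3667HG had 5.17 and 4.98 in IP and 4.94 and 4.60 in Lysate (difference 0.31, limma adjusted p = 0.136). MIR3936HG and MIR3945HG each differed by -0.02, with overlapping groups. The 24 probe sets below the floor included the host of the miR-17 cluster, MIR17HG, at 2.16 and 2.20 in IP and 2.41 and 2.66 in Lysate.

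LINC genes moved in both directions. Of 165 tested LINC probe sets, 28 were called higher, 35 lower and 102 were not called. These are 17.0% higher and 21.2% lower, where 31.5% and 27.9% of all tested probe sets were. At least 2-fold changes numbered 9 upward and 20 downward, where 11.6% and 12.7% of all tested probe sets were called and at least 2-fold higher or lower. The median log2 change was 0.05, with quartiles of -0.27 and 0.33. The calls came from 21 genes that rose and 32 that fell. Centred on the hybridization controls in place of the deposited scale, 10 were called higher and 78 lower, or 6.06% and 47.3%, where 13.8% and 48.3% of all tested probe sets were. That centring moves every change by -0.48 and the median of all tested probe sets to -0.42.

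**Figure D3:**
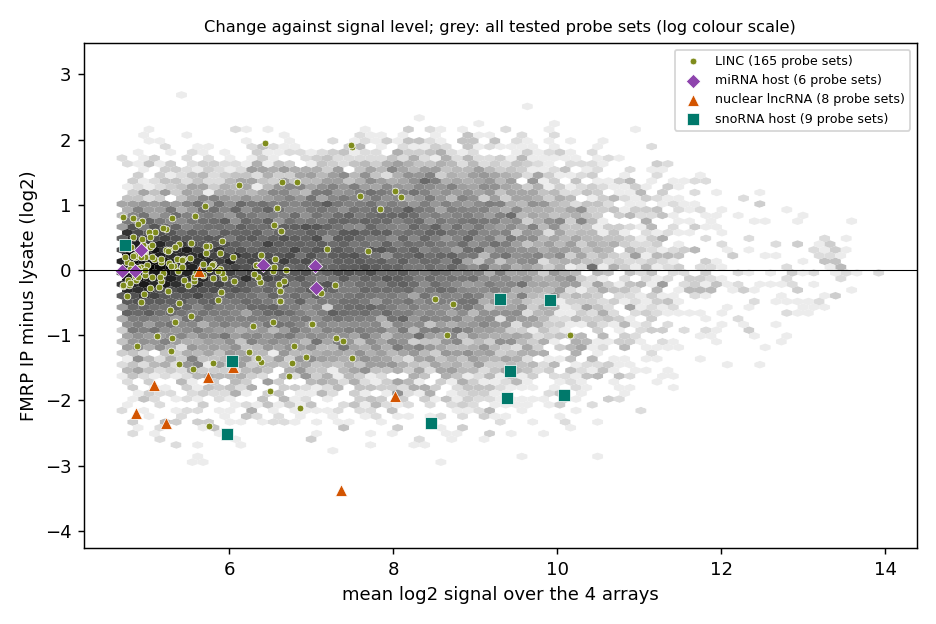
IP minus Lysate log2 change (y axis) against mean log2 signal over the 4 arrays (x axis) for the 188 tested member probe sets, coloured by class; grey hexagons count all tested probe sets on a log colour scale. LINC probe sets crowd near 0 at low signal, while 8 of 9 snoRNA host and 7 of 8 MALAT1 and MEG3 probe sets lie below 0 and were called lower. Of these 7, all of MALAT1, 3 had IP means below the testing floor, so the filter required a fall there.

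The share of LINC probe sets called is given by signal level. Below a mean of 6, 30 of 113 were called (15 higher and 15 lower), or 26.5%, against 41.0% of all probe sets in that band. From 6 to 8, 27 of 46 were called (11 higher and 16 lower), or 58.7%, against 64.6%. At 8 and above, all 6 were called (2 higher and 4 lower), against 72.6%. The median size of the change, in either direction, was 0.24, 0.81 and 0.99 over these bands for LINC probe sets, and 0.34, 0.58 and 0.71 for all tested probe sets. The tested LINC probe sets had a median signal of 5.44, while the 9 tested snoRNA host probe sets had 9.30, the 8 of MALAT1 and MEG3 5.68 and the 6 of microRNA hosts 5.66. These are medians over different probe sets and do not rank the RNAs by abundance.

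LINC02593, on chromosome 1, had the largest rise. One probe set had 7.51 and 7.32 in IP, against 5.39 and 5.55 in Lysate, and the other had 8.34 and 8.53 in IP and 6.51 and 6.596 in Lysate. The log2 changes were 1.95 and 1.88 (SE 0.13 each, limma adjusted p = 0.000113 and 0.000114), 3.85-fold and 3.68-fold higher in IP. The groups did not overlap on either, which the choice of these probe sets required, and the second probe set carries the suffix _a_at.

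LINC00205, on chromosome 21, rose on all 5 of its tested probe sets, with log2 changes from 0.45 to 1.92. The smallest, 0.45, is within the 0.48 by which hybridization control centring lowers every change. The largest was 8.32 and 8.58 in IP, against 6.36 and 6.69 in Lysate (limma adjusted p = 0.000144), on a probe set with the suffix _a_at. A probe set with no such suffix had 8.67 and 8.59 in IP, against 7.39 and 7.44 in Lysate, 2.32-fold higher in IP (log2 change 1.22, limma adjusted p = 0.000220). The direction was the same on every one, and the groups were apart, which the choice of the largest rises required for some of them.

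LINC01128, on chromosome 1, had 7.21 and 7.43 in IP and 5.86 and 6.06 in Lysate on the probe set that changed most (log2 change 1.36, limma adjusted p = 0.000270). Of its 4 tested probe sets 2 were called higher, and the others had changes of 0.33 and 0.38. LINC00965, on chromosome 8, had 7.42 and 7.57 in IP against 6.04 and 6.26 in Lysate (log2 change 1.34, limma adjusted p = 0.000249). LINC01296, which has no RefSeq entry under its gene number, had 6.83 and 6.71 in IP against 5.35 and 5.57 in Lysate (log2 change 1.31, limma adjusted p = 0.000264). On these probe sets all 3 genes had IP arrays above both Lysate arrays, which the choice of the probe sets required.

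LINC00665, on chromosome 19, had the largest fall among LINC probe sets with both group means above the floor. It had 5.91 and 5.69 in IP against 7.85 and 7.99 in Lysate, a 4.34-fold lower IP signal (log2 change -2.12, limma adjusted p = 0.000112). Its second probe set had 5.61 and 5.74 in IP against 6.98 and 7.08 in Lysate and was called lower as well. LINC01278, on the X chromosome, had 4.67 and 4.43 in IP and 6.87 and 7.01 in Lysate and was called lower (limma adjusted p = 0.000112). Both IP values lie below the testing floor, so no size is given, and the probe set may cross-hybridize.

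LINC00674, on chromosome 17, fell on both of its tested probe sets. These had 5.77 and 5.36 in IP against 7.49 and 7.35 in Lysate, and 5.72 and 6.12 in IP against 7.48 and 7.59 in Lysate. The log2 changes were -1.85 and -1.62 (limma adjusted p = 0.000165 and 0.000234), with the groups apart on both, which the choice of these probe sets required. LINC03011 (chromosome 7) and LINC01560 (X chromosome) were called lower too, each with a log2 change of -1.42. LINC00173 (chromosome 12), also called lower, had 5.02 and 4.32 in IP and 6.28 and 5.94 in Lysate, with the IP mean below the floor. LINC03011 had 6.23 and 5.89 in IP against 7.43 and 7.53 in Lysate, and LINC01560 had 5.23 and 4.96 in IP against 6.29 and 6.74 in Lysate.

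**Figure D4:**
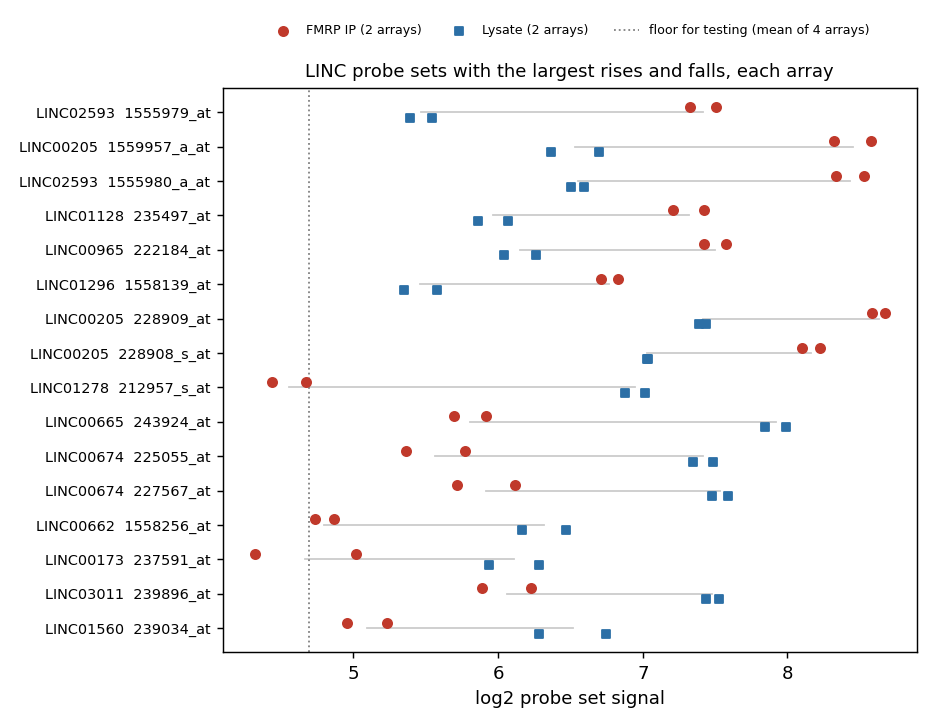
Log2 signal (x axis) of LINC probe sets called with the largest changes, 8 upward and 8 downward, with IP arrays as red circles, Lysate arrays as blue squares, grey lines joining the group means and the testing floor dotted. The groups do not overlap on any of the 16, which the choice of probe sets required.

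Probe sets of one LINC gene did not always move alike. Among 19 LINC genes with at least 2 tested probe sets, 9 had a call, 5 were called in 1 direction on every probe set and none was called in both. LINC00662, on chromosome 19, had 4.74 and 4.86 in IP against 6.16 and 6.47 in Lysate on one probe set (log2 change -1.52, limma adjusted p = 0.000211). It had 6.78 and 6.79 in IP against 7.92 and 7.72 in Lysate on another, which was also called lower. On the third the groups overlapped, at 5.01 and 4.94 in IP and 4.78 and 5.15 in Lysate (difference 0.01). LINC02987 had 6.002 and 5.73 in IP against 6.52 and 6.92 in Lysate on one probe set, which was called lower (log2 change -0.86, limma adjusted p = 0.00485). On its other one, which may cross-hybridize, it had 7.77 and 7.92 in IP against 7.54 and 7.57 in Lysate (difference 0.29, limma adjusted p = 0.0851).

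A member could pass the filter through its higher group alone. The IP mean was below the floor for 11 of the 165 tested LINC probe sets, 6 of them called lower, and the Lysate mean for 10, 3 of them called higher. Of the 918 LINC probe sets below the floor, whose median signal was 3.10, 264 (28.8%) had both IP arrays above both Lysate arrays and 99 (10.8%) had both below, where 27.0% and 19.8% of all probe sets below the floor did. In the fit without a filter, 50 of all 1083 LINC probe sets were called higher and 50 lower, where 14.5% and 14.1% of all probe sets were.

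Of other lncRNA genes, outside the symbol rule, 610 probe sets were tested. Of these, 76 were higher (12.5%), 225 lower (36.9%) and 309 not called, with a median log2 change of -0.17. Over all tested probe sets, 31.5% were higher and 27.9% lower, and these shares also stand beside the counts that follow. Of 22445 tested probe sets of protein-coding genes, 7555 were higher and 6245 lower, and their median was 0.08. From a list of 21 other well-known noncoding RNA genes, 11 were tested, of which 9 were lower, 1 higher and 1 not called, with a median of -1.0004. OIP5-AS1, a cytoplasmic lncRNA, had 7.67 and 7.07 in IP against 9.92 and 9.95 in Lysate (log2 change -2.57, limma adjusted p = 0.000124). FTX, from the X-inactivation centre, had 3.98 and 3.03 in IP against 5.99 and 6.48 in Lysate (limma adjusted p = 0.000376), and no size is given because its IP mean is below the floor. HCG18 had 7.27 and 7.25 in IP against 6.79 and 6.74 in Lysate (log2 change 0.50, limma adjusted p = 0.00908).

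Hosts that encode a protein were called in both directions, and the difference from the noncoding hosts was not tested. For genes of these lists the brightest probe set is used. Of 50 listed protein-coding snoRNA hosts 26 were tested, and 13 were higher, 7 lower and 6 not called, with a median log2 change of 0.34. These counts, and those of the lists that follow, stand beside 31.5% higher and 27.9% lower over all tested probe sets. Those shares cover every tested probe set and signal level, while each list holds 1 probe set per gene. At a mean of 8 and above, 39.2% of all tested probe sets were called higher and 33.4% lower. CHD8, a chromatin remodeller, had 9.85 and 9.98 in IP against 7.92 and 8.12 in Lysate (log2 change 1.90, limma adjusted p = 0.000114), and SF3B3, a splicing factor, changed by 1.81. RPS12, a ribosomal protein gene, had 12.02 and 11.55 in IP against 13.27 and 13.25 in Lysate (log2 change -1.48, limma adjusted p = 0.000414).

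The proteins that handle these RNAs were listed as well, as mRNAs. Of 15 snoRNP proteins and assembly factors 13 were tested, with 4 higher, 5 lower and 4 not called, and a median of -0.29. Among the snoRNP core proteins, NOP10 and GAR1 changed by -1.65 and -1.01 and NOP58 by 1.28 (limma adjusted p = 0.000117, 0.000540 and 0.000359). Of 10 nonsense-mediated decay factors 6 were tested and 5 were higher, with UPF1, the helicase of the pathway, at 9.55 and 9.41 in IP against 7.98 and 8.13 in Lysate (log2 change 1.42, limma adjusted p = 0.000168) and UPF2 at a change of 1.35. Of 8 paraspeckle proteins 7 were tested, with 4 higher and 3 not called. PSPC1 had 10.58 and 10.72 in IP against 8.83 and 8.78 in Lysate (log2 change 1.84, limma adjusted p = 0.000112), and SFPQ changed by 0.85 (limma adjusted p = 0.000955).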

How the data were processed

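Affymetrix U133 Plus 2.0 arrays measured 2 IP and 2 Lysate RNA samples, grouped by their titles. The authors deposited log2 signals per probe set, a scale read from the values. How background was corrected and probes summarised and normalized is not given in the sources used here. Of 54675 probe sets, 41091 had 1 gene symbol, 1801 had several, 11721 had none and 62 were controls. RefSeq tables (GRCh38.p14) gave classes, nested genes and sequences.

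The difference of IP and Lysate means was estimated with lmFit and eBayes of limma 3.58.1 under R 4.3.3 (2 residual and 4.82 prior degrees of freedom) on 27307 probe sets with a mean of at least 4.69, with Benjamini-Hochberg adjustment over all of them and a threshold of 0.05. The fit was tested on simulated data. The number of arrays limits the precision.

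The text names FMR1, FXR1 and FXR2, all tested members outside LINC, and up to 3 genes per other list. Of LINC genes, it names those whose probe sets differ in sign. It also names the 8 largest called rises and falls among LINC probe sets whose groups did not overlap. LINC00665's second probe set and members below the floor were added after their values were seen. Members, lists and rules were chosen with earlier results of these data known. Alternatives covered scaling, filter, probe set choice, replicate block, spread estimate, threshold and each array left out. Figures used matplotlib 3.10.9.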

Additional observations from a re-analysis of the deposited data

How the results depend on the processing

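For 43 named probe sets, 33 of them called, 13 other settings were tried. Only 24 of the 43 were tested with 1 probe set per gene, 27 with unique probe sets alone and 28 at a mean of at least 6. The calls that changed were those of SNHG17, GAS5, MIR1915HG, MEG3, MIR3936HG, LINC02987 and LINC00662. Centred on hybridization controls, the medians were -2.02 for snoRNA hosts, -2.32 for MALAT1 and MEG3, -0.46 for microRNA hosts (2 called lower) and -0.43 for LINC (10 higher and 78 lower). Over all tested probe sets, 13.8% were called higher and 48.3% lower with that centring. The -2.32 includes 3 MALAT1 probe sets with IP means below the floor and is not read as the size of a fall. With that centring MEG3 (-0.50, limma adjusted p = 0.0270), MIR3936HG (-0.50, 0.0457) and the MIR1915HG probe set (-0.76, 0.00348) were called lower. The third LINC00662 probe set had -0.47 in place of 0.01 (limma adjusted p = 0.0396) because every change moved by -0.48.

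Quantile normalization gave medians of -1.57 for snoRNA hosts and 0.0697 for LINC. Without a filter the medians were -0.46 over all 18 snoRNA host probe sets, -0.37 over 22 of MALAT1 and MEG3 and 0.104 over LINC, with 50 LINC probe sets higher and 1 microRNA host probe set, of MIR924HG, lower. In that fit 14.5% of all 54613 probe sets were called higher and 14.1% lower. At a mean of at least 6, 3 MALAT1 probe sets and 1 of MIR1915HG (limma adjusted p = 0.0433) were called lower. Of 52 LINC probe sets there, 15 were called higher and 22 lower, with a median of -0.17. LINC02987 passed (0.29, limma adjusted p = 0.0491). Over all 18379 probe sets tested at that level, 7265 were higher and 6172 lower. With 1 probe set per gene, MALAT1 and MEG3 gave 1 lower and a median of -0.97, where 3791 of all 13165 probe sets were lower. With probe sets lacking a cross-hybridization suffix, snoRNA hosts gave 5 lower and -1.47, MALAT1 gave 1 lower and -2.19, and the LINC median was 0.0138. That 1 MALAT1 probe set had an IP mean below the testing floor, so the filter required a lower IP mean there. Its -2.19 is therefore not read as the size of a fall, and this setting cannot test the direction for MALAT1. At a threshold of 0.01, 6 snoRNA host probe sets were lower, and 19 LINC probe sets were higher and 28 lower. Over all 27307 tested probe sets, 6465 were higher and 5949 lower at that threshold.

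Leaving out each array gave snoRNA host medians of -1.74 to -1.47, with 6 to 8 lower and 0 to 1 higher. It gave -2.13 to -1.56 for MALAT1 and MEG3, -0.04 to 0.08 for microRNA hosts, and 0.000368 to 0.0788 for LINC. The medians of MALAT1 and MEG3 include 3 MALAT1 probe sets with IP means below the floor. They are not read as the size of a fall. The lone array is then assumed to vary like the other group.

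Replicate numbers were not treated as pairs. The difference between IP arrays and that between Lysate arrays correlated at 0.0562 across tested probe sets, with only 2 pairs. With the replicate block, 33 LINC probe sets were higher and 35 lower, 8 snoRNA host and 7 MALAT1 probe sets were lower, and no named call changed. Of the 7, 3 had IP means below the floor. Over all tested probe sets, 8659 were higher and 7686 lower with the block.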

Other observations

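Many snoRNA host probe sets carry the host's symbol together with the symbols of the snoRNAs inside it, and so fell outside the single-symbol rule. This group was picked after values had been seen, and its genes are not named. It held 25 probe sets, with 15 different combinations of host and snoRNA symbols, and 20 of the probe sets were tested. Of these, 15 were called lower in the IP, 1 higher (log2 change 0.74) and 4 were not called, beside 27.9% lower and 31.5% higher over all tested probe sets. The median log2 change was -1.06, with a range from -2.23 to 0.74, and 12 were lower by at least 2-fold. Their median signal was 8.85.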
